A study of Homo sapiens with 26 samples.

Results

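The 10 mucin genes described here were examined in 3 human pancreatic ductal adenocarcinoma cell lines in which the transcription factor HNF4α was switched on or repressed. These 10 genes were the rows of the 3 deposited count tables whose Ensembl identifier carries the symbol MUC1, MUC2, MUC3A, MUC4, MUC5AC, MUC5B, MUC13, MUC16, MUC17 or MUC20, out of 62778 gene identifiers in the tables. The rule reads symbols and no measured level, but the set was chosen with earlier results of these data known. They were split by the kind of protein they encode into 3 secreted, gel-forming mucins (MUC2, MUC5AC, MUC5B) and 7 membrane mucins (MUC1, MUC3A, MUC4, MUC13, MUC16, MUC17, MUC20).

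Mucins are large glycoproteins whose serine- and threonine-rich repeats carry dense chains of O-linked sugars. Gel-forming mucins are stored in granules and polymerise into mucus after release, whereas membrane mucins are anchored in the apical surface, where they form a glycocalyx and can signal through their cytoplasmic tails. Normal pancreatic ducts make little gel-forming mucin, and MUC5AC, MUC1, MUC4 and MUC16 are familiar markers of pancreatic neoplasia, while MUC2, MUC3A, MUC13 and MUC17 are best known from the intestine.

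HNF4α is an endodermal nuclear receptor transcribed from a pair of promoters, P1 and P2, which give isoforms with different N-termini. In Panc10.05 cells, doxycycline at 25 ng/mL induced the P1 isoform construct (labelled P1-a2) or was given to a control labelled GFP-NC, and 12.5 ng/mL induced the P2 isoform construct (P2-a8). In BxPC3 cells all 3 groups (P1-a2, P2-a8 and a control labelled EV-NC) received 500 ng/mL. Each of these 6 groups had 2 libraries. In AsPC-1 cells CRISPR interference, in which a guide RNA directs a repressor to a promoter, was aimed at P1 (guides sgP1E and sgP1J), at P2 (sgP2D and sgP2G) or at both (sgDual2 and sgDual3), beside a control guide, sgNC, with 2 libraries per guide. The labels do not say whether replicate libraries came from separate cultures or whether lines were clones, so p-values measure only the spread between these libraries. Cell line, control construct, doxycycline dose and the number prefix of the library titles go together and cannot be told apart. The labels do not say what the prefix stands for.

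The Panc10.05 libraries held 34618745 to 46827673 counts each, those of BxPC3 26369154 to 37483772 and those of AsPC-1 26079388 to 50662077. Levels are given as CPM, counts scaled to a common library size, and as CPM per kb of annotated exon where genes are compared with each other. All 5 epithelial markers (EPCAM, CDH1, KRT8, KRT18, KRT19) were present in each line. The summed level of 19 markers of other cell types was 6.03 to 9.86 CPM in Panc10.05 and 25.8 to 31.8 in BxPC3. In AsPC-1 it was 135 to 302, with LUM and CD14 the only ones at 1 CPM or more, and it was highest with sgDual (281 to 302 against 168 to 183 with sgNC). Nearly all of this sum was LUM, at 278 to 299 CPM with sgDual and 164 to 178 with sgNC. CD14 went the other way, at 1.43 to 1.96 CPM with sgDual and 2.69 to 2.92 with sgNC. CD3E, PRSS1, CPA1 and INS were at 0 in AsPC-1. The part of these markers in the mucin differences was not tested. HNF4A, the targeted gene, was at 0.0580 and 0.240 CPM in the Panc10.05 controls, 10.7 and 13 with P1-a2 and 37.6 in both P2-a8 libraries. In BxPC3 it was at 0.464 and 1.08 in the controls, 9.76 and 11.6 with P1-a2, and 12.6 and 14.2 with P2-a8. In AsPC-1 it was at 206 and 220 with sgNC, 109 to 146 with sgP1, 76.7 to 93.9 with sgP2 and 3.19 to 13.6 with sgDual. Its count pools all isoforms, so P1 and P2 transcripts are not separated.

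Each comparison used edgeR's quasi-likelihood test, and a gene passed at a Benjamini-Hochberg adjusted p under 0.05 over all genes tested in that line. In AsPC-1 comparisons of targets, libraries of both guides of a target formed a group with no guide term. Guides were thus treated as replicates there, and the spread mixes guides and libraries. Over the 12 group comparisons the median log2 fold change of all genes tested lay between -0.01 and 0.02. Comparisons with a control group share its 2 libraries. Fold changes below are log2 values with their standard error (SE).

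HNF4α binds direct repeats with the core CAAAGTCCA, and promoter windows of these genes were searched for it. RefSeq promoter windows (GRCh38.p14, 250 bases before to 50 after a start site) were held for 7 of the 10 genes, in 9 windows. CAAAGTCCA, searched on both strands, occurred in 1 of the 9 windows, that of MUC13, and in 0.384% of 35116 promoters of the same length. The looser pattern CAAAGNNCA, which contains every match of the first, occurred in 3 of the 9 (MUC13, MUC17 and the second of a pair of MUC16 windows) and in 5.28% of all promoters. The 250 bases before the start site are shown for MUC13, MUC17 and MUC3A, the 3 genes that rose with both isoforms in both induction lines, 5′ to 3′ on the gene's strand, with matches to either pattern in capitals.
MUC13, chr3:124934752-124935001, minus strand: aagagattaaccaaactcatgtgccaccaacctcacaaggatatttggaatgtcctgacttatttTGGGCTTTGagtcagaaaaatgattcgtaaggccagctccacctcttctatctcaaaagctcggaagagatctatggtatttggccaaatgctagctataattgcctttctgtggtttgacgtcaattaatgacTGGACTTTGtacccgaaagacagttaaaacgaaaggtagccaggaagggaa
MUC17, chr7:101019831-101020080, plus strand: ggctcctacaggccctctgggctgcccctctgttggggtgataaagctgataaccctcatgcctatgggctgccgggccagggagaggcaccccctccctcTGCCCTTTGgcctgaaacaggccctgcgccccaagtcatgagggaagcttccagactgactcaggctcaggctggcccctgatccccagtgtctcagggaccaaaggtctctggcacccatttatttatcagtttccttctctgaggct
MUC3A, chr7:100949284-100949533, plus strand: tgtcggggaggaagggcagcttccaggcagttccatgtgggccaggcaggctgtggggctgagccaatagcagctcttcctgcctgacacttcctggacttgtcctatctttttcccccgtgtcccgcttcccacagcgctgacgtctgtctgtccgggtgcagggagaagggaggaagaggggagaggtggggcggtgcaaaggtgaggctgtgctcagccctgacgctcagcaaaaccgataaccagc
The exact core in MUC13 begins 51 bases before its start site and reads on the opposite strand, as TGGACTTTG. Its looser match begins 185 bases before, and that of MUC17 149 bases before. MUC3A had no match. MUC16, with a looser match in 1 of its windows, fell with both isoforms in BxPC3 and rose with both in Panc10.05. In the GENCODE v29 annotation MUC16 ends at 8981342, so both of its windows (from 9010360 and 9065702) lie outside the gene. The start site used for MUC13 lies inside its GENCODE v29 span, which reaches 124953819. These windows are therefore not at the outer ends of the genes as annotated there. The printed windows were picked by the response of their genes, and a link between match and response was not tested. A match is a string of letters and not a measured binding site, and no binding data were used here.

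The 3 lines held different mucins before any HNF4α manipulation. Per kb of exon, the Panc10.05 controls were led by MUC13 at 23.2, MUC20 at 10.6 and MUC1 at 8.54 CPM per kb. The ranges of MUC20 (9.19 to 12) and MUC1 (8.36 to 8.72) did not overlap, but MUC20 varied far more between its 2 libraries. MUC4 followed at 1.13, MUC3A at 0.374 and MUC16 at 0.0640, and MUC17 and the 3 secreted mucins had at most 2 counts in any control library. In the BxPC3 controls MUC1 led at 7.58, followed by MUC4 at 3.57, MUC13 at 2.74 and MUC20 at 2.53. MUC13 (2.47 to 3.01) and MUC20 (2.52 to 2.54) overlapped. MUC2, the intestinal goblet cell mucin, stood at 1.19, above MUC16 at 0.258, MUC5AC at 0.113, MUC3A at 0.0263 and MUC5B at 0.0159, and MUC17 had no count. In the AsPC-1 controls MUC17 led at 59.1 (56.5 and 61.7), above MUC13 at 42.4 (37.6 and 47.3), MUC3A at 3.12 and MUC1 at 1.08. MUC5B was the most abundant secreted mucin there at 0.205, above MUC5AC at 0.0274 and MUC2 at 0.00379. MUC20 lay at 0.0415, with a range (0.0149 to 0.0680) that took in both MUC5AC libraries. MUC4 was at 0.00450, and MUC16 had no count with sgNC.

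**Figure D1:**
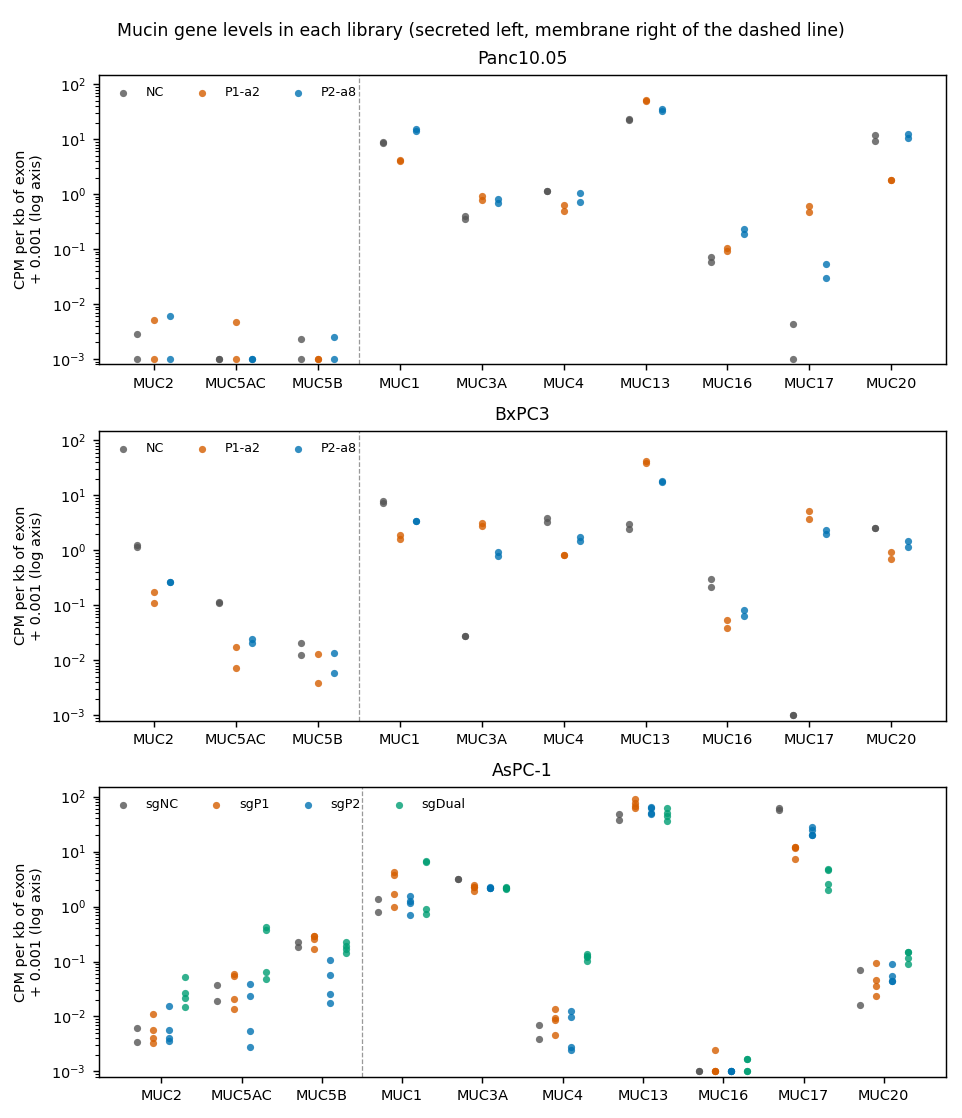
Level of each mucin gene in each library as CPM per kb of exon plus 0.001 on a log axis, with a panel per cell line, secreted genes left of the dashed line and colours for the groups. Secreted genes lie at the bottom in Panc10.05, MUC17 goes from no counts to 53.0 and 74.3 CPM with P1-a2 in BxPC3, and it is the highest gene of the AsPC-1 controls.

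In BxPC3 both isoforms were followed by lower secreted mucins. MUC2 was at 14.3 and 15.8 CPM in the controls, 2.23 and 1.38 with P1-a2, and 3.4 and 3.34 with P2-a8. The 3 groups did not overlap. It fell 8.44-fold with P1-a2 (-3.08, SE 0.19, adjusted p = 6.70e-07, edgeR) and 4.47-fold with P2-a8 (-2.16, SE 0.18, adjusted p = 2.44e-05). MUC5AC, the mucin of gastric surface cells, was far lower, at 1.93 and 2.02 CPM in the controls, 0.282 and 0.108 with P1-a2, and 0.400 and 0.337 with P2-a8. It fell 10.2-fold with P1-a2 (-3.36, SE 0.42, adjusted p = 0.000119) and 5.32-fold with P2-a8 (-2.41, SE 0.38, adjusted p = 0.00272). The P1-a2 value was -4.14 without P1-a2 replicate 1 and -2.80 without P1-a2 replicate 2. MUC5B, the main airway gel mucin, had 2 to 10 counts per library and was too low to be tested. Thus 2 of 3 secreted mucins were tested and both fell with each isoform, where 32.0% of all genes tested passed for P1-a2 against the control and 6.99% for P2-a8.

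The membrane mucins of BxPC3 moved in both directions. MUC17, a large intestinal membrane mucin, had no count in either control, which allows up to 0.0819 and 0.111 CPM in those libraries (3 counts). It reached 53.0 and 74.3 CPM with P1-a2, at least 658-fold higher, and 29.5 and 34.5 CPM with P2-a8, at least 331-fold higher (adjusted p = 2.15e-05 and 0.000197). MUC3A, its neighbour on chromosome 7, was at 0.297 and 0.300 CPM in the controls, 31.0 and 35.1 with P1-a2 and 10.7 and 8.94 with P2-a8. It rose 109-fold (6.77, SE 0.19, adjusted p = 1.79e-09) and 32.5-fold (5.02, SE 0.21, adjusted p = 1.27e-07). MUC13, a gastrointestinal membrane mucin, was at 10.5 and 8.63 CPM in the controls, 138 and 150 with P1-a2 and 60.4 and 63.5 with P2-a8, rises of 15.1-fold (3.92, SE 0.09) and 6.52-fold (2.7, SE 0.09). For all 3 genes the groups were fully apart and ordered control, P2-a8, P1-a2.

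The other 4 membrane mucins fell in BxPC3. MUC4, an ERBB2-binding mucin, was at 69.2 and 83.2 CPM in the controls, 17.2 and 17.4 with P1-a2 and 31.1 and 36.9 with P2-a8, that is 4.41-fold and 2.25-fold lower (adjusted p = 2.28e-07 and 5.65e-05). MUC1, which associates with EGFR family receptors, was at 34.6 and 36.9 CPM in the controls, 9.13 and 7.70 with P1-a2 and 15.8 and 16.1 with P2-a8. It fell by 2.09 (SE 0.10) and by 1.17 (SE 0.10) on the log2 scale. MUC16, which encodes the CA125 antigen, was at 9.30 and 13.3 CPM in the controls, 2.29 and 1.62 with P1-a2 and 3.6 and 2.76 with P2-a8. It fell by 2.55 (SE 0.23) and by 1.83 (SE 0.22). MUC20, a small mucin that interacts with the MET receptor, was at 10.7 and 10.8 CPM in the controls, 3.98 and 2.89 with P1-a2 and 6.35 and 4.81 with P2-a8. It fell by 1.65 (SE 0.18) and by 0.94 (SE 0.17). In each of these genes no library of an induced group reached the controls. All 7 membrane mucins thus passed with either isoform, 3 rising and 4 falling. The P2-a8 call of MUC20 (adjusted p = 0.00726, edgeR) was lost without control replicate 2, at 0.0502. That was the highest of its alternatives, which started at 8.38e-08.

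In Panc10.05 the secreted mucins stayed at the limit of counting. MUC2 had 0 to 3 counts per library, MUC5AC 0 in 5 libraries and 3 in the other, and MUC5B 0 or 1, so none of the 3 was tested. No difference in these genes was detectable at this depth, at which 3 counts correspond to 0.0641 to 0.0869 CPM.

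All 7 membrane mucins passed with P1-a2 in Panc10.05, where 62.0% of all genes tested passed. MUC13 was at 83.1 and 79.6 CPM in the controls, 174 and 182 with P1-a2 and 123 and 114 with P2-a8. It rose 2.18-fold with P1-a2 (1.13, SE 0.06, adjusted p = 1.62e-19, edgeR) and 1.46-fold with P2-a8 (0.55, SE 0.06, adjusted p = 1.22e-09). MUC3A was at 4.52 and 4.0 CPM in the controls, 8.88 and 10.6 with P1-a2 and 7.93 and 9.16 with P2-a8, a rise of 2.28-fold (1.19, SE 0.13) and 1.99-fold (0.99, SE 0.14). The P1-a2 and P2-a8 libraries of MUC3A overlapped. MUC17 had 2 and 0 counts in the controls, 338 and 321 with P1-a2 (8.68 and 6.98 CPM) and 36 and 15 with P2-a8 (0.769 and 0.423 CPM). With so few control counts its ratio is wide, at 295 for P1-a2 (95% counting interval 81.5 to 2444) and 23.6 for P2-a8 (6.21 to 200). These intervals are exact binomial ones and cover counting error only.

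MUC1, MUC4, MUC16 and MUC20 separated the isoforms in Panc10.05. MUC1 was at 39.4 and 41.1 CPM in the controls, 19.5 and 19.3 with P1-a2 and 66.0 and 73.1 with P2-a8. It fell 2.08-fold with P1-a2 (-1.05, SE 0.08, adjusted p = 8.39e-16, edgeR) and rose 1.73-fold with P2-a8 (0.79, SE 0.07, adjusted p = 2.16e-12), with no overlap between groups. MUC20 was at 51 and 39.1 CPM in the controls, 7.52 and 7.57 with P1-a2 and 43.8 and 52.0 with P2-a8. It fell 5.98-fold with P1-a2 (-2.58, SE 0.12), and its P2-a8 libraries overlapped the controls (0.08, SE 0.11, adjusted p = 0.565). Without control replicate 1 the P2-a8 value of MUC20 was 0.30 with an adjusted p of 0.0101, and over all alternatives that p ran from 0.0101 to 0.830. MUC4 was at 23.9 and 24.4 CPM in the controls, 10.5 and 13.3 with P1-a2 and 15.6 and 22.7 with P2-a8. It fell 2.03-fold with P1-a2 (-1.02, SE 0.18, adjusted p = 0.000997). Both P2-a8 libraries of MUC4 were below the controls but the difference did not pass (-0.34, SE 0.17, adjusted p = 0.143). It passed without P2-a8 replicate 2 (-0.62, adjusted p = 2.04e-05), and the adjusted p ran from 2.04e-05 to 0.629 over all alternatives. MUC16 was at 3.15 and 2.46 CPM in the controls, 4.49 and 4.04 with P1-a2 and 9.09 with P2-a8 as the mean of 2, the lower at 8.10. It rose 1.51-fold with P1-a2 (0.59, SE 0.17) and 3.20-fold with P2-a8 (1.68, SE 0.15), with no overlap. In all, 4 of the 7 membrane mucins rose and 3 fell with P1-a2, and 5 rose and 0 fell with P2-a8, where 46.2% of all genes tested passed. For P2-a8, DESeq2 on the same genes and an unadjusted edgeR p under 0.05 called none of the 7 lower, whereas MUC4 was called lower without the filter on low counts (-0.34, adjusted p = 0.00158) and with the replicate block (-0.36, adjusted p = 0.00617).

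**Figure D2:**
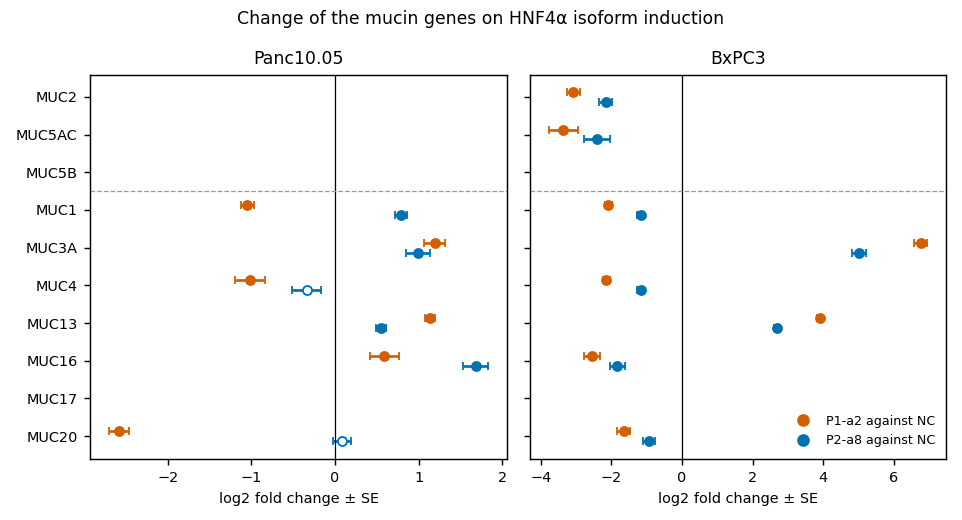
Log2 fold change with its SE for each mucin gene against the control of its line, with P1-a2 in orange and P2-a8 in blue, filled where the adjusted p was under 0.05 and open where not. MUC17 and the untested secreted genes have no point, the x axes differ between panels, and MUC1 lies on opposite sides of 0 for the isoforms in Panc10.05 (-1.05 and 0.79) but not in BxPC3 (-2.09 and -1.17).

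Set directly against each other, the isoforms differed in 6 of 7 membrane mucins in Panc10.05, beside 46.9% of all genes tested. MUC17 was 12.6-fold higher with P1-a2 than with P2-a8 (3.66, SE 0.23) and MUC13 1.5-fold higher (0.58, SE 0.06). MUC20 was 6.33-fold lower with P1-a2 (-2.66, SE 0.12), MUC1 3.58-fold lower (-1.84, SE 0.07), MUC16 2.12-fold lower (-1.09, SE 0.14) and MUC4 1.6-fold lower (-0.68, SE 0.18). HNF4A was 3.17-fold lower with P1-a2 than with P2-a8 in these libraries, and the doxycycline doses differed. Isoform, dose and HNF4A level cannot be told apart there.

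In BxPC3, at equal dose, HNF4A did not differ between the isoforms by the test (-0.33, SE 0.17, adjusted p = 0.217, edgeR). Both P1-a2 libraries (9.76 and 11.6 CPM) were nevertheless below both P2-a8 libraries (12.6 and 14.2), so equal HNF4A levels were not shown. There 7 of 9 tested mucins differed, beside 22.5% of all genes tested. MUC3A was 3.36-fold higher with P1-a2 (1.75, SE 0.12), MUC13 2.32-fold (1.22, SE 0.08) and MUC17 1.99-fold (0.99, SE 0.18). MUC4 was 1.96-fold lower with P1-a2 (-0.97, SE 0.11), MUC1 1.90-fold (-0.93, SE 0.11), MUC2 1.89-fold (-0.92, SE 0.21) and MUC20 1.63-fold (-0.71, SE 0.19). MUC16 (-0.71, SE 0.26, adjusted p = 0.0701) and MUC5AC (adjusted p = 0.227) were lower in every P1-a2 library without passing. Single libraries decided 3 of the 7 calls. MUC2 missed the threshold without P1-a2 replicate 2 (-0.58, adjusted p = 0.0862), with 5.12e-05 as its lowest p over the alternatives. MUC17 missed it without either P2-a8 library (adjusted p = 0.152 and 0.0957, lowest 7.41e-23). MUC20 missed it without P2-a8 replicate 1 or P1-a2 replicate 2 (0.174 and 0.162, lowest 0.000452). MUC16 in turn passed without P2-a8 replicate 2 (-0.87, adjusted p = 0.0472), within a range of 0.00435 to 0.351.

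The responses of the 2 induction lines were compared in a joint model as an interaction term, the Panc10.05 log2 change minus that of BxPC3. For P1-a2, 6 of the 7 membrane mucins differed, those with counts in all groups, beside 36.4% of all genes tested. MUC3A and MUC13 rose less in Panc10.05 (-5.57, SE 0.28, and -2.78, SE 0.11), MUC1 and MUC4 fell less (1.05, SE 0.13, and 1.13, SE 0.26), and MUC20 fell more (-0.91, SE 0.24). MUC16 moved in opposite directions (3.16, SE 0.30, adjusted p = 5.82e-08, edgeR). The MUC20 difference was lost without BxPC3 P1-a2 replicate 1 (-0.68, adjusted p = 0.0657, lowest 2.65e-06). For P2-a8 the same 6 passed, beside 23.5% of all genes tested. MUC16 (3.52, SE 0.28) and MUC1 (1.95, SE 0.12) rose in Panc10.05 and fell in BxPC3. MUC3A (-4.03, SE 0.30) and MUC13 (-2.16, SE 0.11) rose less in Panc10.05. For MUC20 the difference was 1.03 (SE 0.22) and for MUC4 0.83 (SE 0.25, adjusted p = 0.0379). MUC17 had no count in either BxPC3 control library, so its difference has no firm size and is not among the 6. As fitted, MUC17 did not pass with P1-a2 (adjusted p = 0.229, edgeR) or with P2-a8 (0.138). It passed without the filter on low counts and with the replicate block (lowest 0.0251 and 0.00155 for the respective isoforms). The MUC4 difference was lost without either Panc10.05 control, BxPC3 P2-a8 replicate 1 or BxPC3 control replicate 2 (adjusted p = 0.111, 0.114, 0.124 and 0.0921, lowest 6.46e-08). The control levels also differed between the lines, MUC13 starting from 81.3 CPM in Panc10.05 and 9.58 in BxPC3, and MUC3A from 4.26 and 0.299.

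In AsPC-1 MUC17, the most abundant mucin of the controls, fell with all 3 kinds of knockdown. It was at 900 and 823 CPM with sgNC. With sgP1E it was at 176 and 172 and with sgP1J at 180 and 108. With sgP2D it was at 293 and 290 and with sgP2G at 406 and 363. With sgDual2 it was at 29.4 and 68.0 and with sgDual3 at 37.1 and 70.7. The 4 targets did not overlap in any library. MUC17 fell 5.42-fold with sgP1 (-2.44, SE 0.31, adjusted p = 0.0103, edgeR), 2.55-fold with sgP2 (-1.35, SE 0.31, adjusted p = 0.0384) and 16.8-fold with sgDual (-4.07, SE 0.32, adjusted p = 4.18e-06). Only 0.265% of all genes tested passed for sgP1, 3.42% for sgP2 and 35.6% for sgDual. These shares pool the guides of a target, and those of sgP1 and sgP2 were larger with each guide fitted as its own group. The sgP1 call was lost without sgNC replicate 1 or 2 (adjusted p = 0.126 and 0.129, lowest over the alternatives 1.29e-09). The sgP2 call was lost without any 1 of the 6 libraries in turn (2 of sgNC, 2 of sgP2D, 2 of sgP2G), at 0.0563 to 0.245, with the value between -1.46 and -1.29 and a lowest p of 0.00255 over the alternatives. HNF4A itself fell only with sgDual by the test (-4.73, SE 0.39), at -0.72 (SE 0.36, adjusted p = 0.615) with sgP1 and -1.30 (SE 0.36, adjusted p = 0.0751) with sgP2.

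MUC3A, next to MUC17 on the chromosome, was at 35.4 and 35.7 CPM with sgNC and between 22.1 and 28.5 in all 12 other libraries. It fell 1.4-fold with sgP1 (-0.48, SE 0.08, adjusted p = 0.0255, edgeR), 1.43-fold with sgP2 (-0.52, SE 0.08, adjusted p = 0.00446) and 1.43-fold with sgDual (-0.52, SE 0.08, adjusted p = 0.000254). The 3 comparisons share the 2 sgNC libraries. The sgP1 call was lost without sgNC replicate 1, sgNC replicate 2 or sgP1E replicate 2 (0.250, 0.329 and 0.0579) and with only the 2 groups fitted (0.363), its lowest p being 0.000145. The sgP2 call was lost without sgNC replicate 1 or 2 (0.0664 and 0.0771, lowest 8.06e-06). MUC13 was at 132 and 165 CPM with sgNC, 218 to 311 with sgP1, 169 to 224 with sgP2 and 127 to 218 with sgDual. All sgP1 libraries were above sgNC without passing (0.80, SE 0.20, adjusted p = 0.157), although DESeq2 (0.00647) and a fit of 7 guide groups (0.00861) passed it, the highest p of any alternative being 0.849. MUC16 had at most 2 counts in the AsPC-1 libraries and was not tested.

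MUC4, MUC20 and MUC2 had few counts in AsPC-1, 1 to 13 per library outside sgDual. MUC4 was at 0.0634 and 0.128 CPM with sgNC, 0.0780 to 0.271 with sgP1, 0.0300 to 0.247 with sgP2, and 2.12, 2.60, 2.63 and 2.86 with sgDual. It rose 25.7-fold with sgDual (4.68, SE 0.53, adjusted p = 1.41e-05, edgeR), from 6 counts in both sgNC libraries together to 357 in 4. MUC20 had 2 and 9 counts with sgNC and 14 to 22 with sgDual, a rise of 2.98-fold (1.58, SE 0.55, adjusted p = 0.0346). That call was lost without sgNC replicate 1 (0.87, adjusted p = 0.357), sgDual3 replicate 1 (0.0653) or sgDual2 replicate 2 (0.0691), or without guide sgDual2 (0.108) or sgDual3 (0.0686), with a lowest p of 0.0167. Without sgNC replicate 2 the value was 3.0. MUC2 had 1 and 2 counts with sgNC and 9, 6, 22 and 12 with sgDual. Its ratio was 7.33 (95% counting interval 2.37 to 36.8) and its adjusted p 0.0148, lost without sgNC replicate 1 (0.142) or 2 (0.0580), lowest 0.00865. Both sgDual guides were above sgNC in these 3 genes. The highest other libraries overlapped sgDual for MUC20 (0.391 CPM with sgP1E against 0.381 in the lowest sgDual library) and MUC2 (0.185 CPM with sgP2D against 0.173), but not for MUC4.

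Of the 3 secreted mucins, MUC5B passed with sgP2 against sgNC. It was at 4.18 and 3.44 CPM with sgNC, 4.66 and 5.48 with sgP1E, 5.49 and 3.13 with sgP1J, 0.309 and 0.463 with sgP2D, 1.05 and 1.94 with sgP2G, 2.64 and 3.55 with sgDual2, and 4.12 and 3.13 with sgDual3. All 4 sgP2 libraries were below all 10 others. MUC5B fell 3.98-fold against sgNC (-1.99, SE 0.45, adjusted p = 0.0288, edgeR) and 4.90-fold against sgP1 (-2.29, SE 0.38, adjusted p = 0.00525). With sgDual, which targets both promoters, it was 3.51-fold higher than with sgP2 (1.81, SE 0.39, adjusted p = 0.00180) and overlapped sgNC. The sgP2D libraries were below those of sgP2G (-1.91, SE 0.46, adjusted p = 0.0655, range over alternatives 4.54e-07 to 0.458). The call against sgNC was lost without sgNC replicate 1 or 2 (0.217 and 0.145), sgP2G replicate 1 (0.0615), sgP2D replicate 2 (0.0543) or the guide sgP2D (-1.35, adjusted p = 0.0570), without the filter on low counts (0.0862) and with only the 2 groups fitted (0.0770), its lowest p being 0.000325. Without sgP2G replicate 2 the values were larger, at -2.61 against sgNC, -2.91 against sgP1 and 2.43 for sgDual against sgP2. The call against sgP1 held without each library (0.000555 to 0.0200) and missed the threshold with only the 2 groups fitted (0.0588, lowest 5.12e-08).

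MUC1 and MUC5AC differed between guides of 1 target. MUC1 was at 3.80 and 6.39 CPM with sgNC, 4.58 and 7.83 with sgP1E, 17.5 and 20.4 with sgP1J, 3.36 and 5.96 with sgP2D, 5.39 and 7.19 with sgP2G, 31.5 and 31.0 with sgDual2, and 3.46 and 4.30 with sgDual3. It was 8.04-fold higher with sgDual2 than with sgDual3 (3.01, SE 0.32, adjusted p = 0.000765, edgeR) and 3.10-fold lower with sgP1E than with sgP1J (-1.63, SE 0.30, adjusted p = 0.00470). No target moved MUC1 against sgNC by the test, and the sgDual value against sgNC changed sign with the guide, from 2.62 without sgDual3 to -0.38 without sgDual2 (adjusted p = 0.0143 and 0.705, lowest 0.00957). MUC5AC was at 0.634 and 0.321 CPM with sgNC, 0.917 and 1.02 with sgP1E, 0.350 and 0.226 with sgP1J, 0.0773 and 0.0309 with sgP2D, 0.390 and 0.668 with sgP2G, 0.804 and 1.13 with sgDual2, and 7.37 and 6.40 with sgDual3. It was 7.11-fold lower with sgDual2 than with sgDual3 (-2.83, SE 0.26, adjusted p = 3.76e-05) and 3.28-fold higher with sgP1E than with sgP1J (1.72, SE 0.38, adjusted p = 0.00868). With sgP2D it had 3 counts against 34 with sgP2G, a ratio of 0.0981 (95% counting interval 0.0193 to 0.312, adjusted p = 0.0189). The MUC5AC difference between the sgP1 guides was lost without sgP1J replicate 2 (0.0740, lowest 4.33e-05). That between the sgP2 guides was lost without sgP2D replicate 1 or 2 or sgP2G replicate 2 (0.0906, 0.230 and 0.166, lowest 2.33e-05). Between guides of the same target 14.5% of all genes tested passed for sgP1E against sgP1J, 1.69% for sgP2D against sgP2G and 0.883% for sgDual2 against sgDual3. Against sgNC the sgDual value of MUC5AC did not pass (3.03, SE 1.10, adjusted p = 0.0505) but did without sgDual2 replicate 1 (0.0212), sgDual2 replicate 2 (0.0313) or the guide sgDual2 (3.85, adjusted p = 0.00507), within a range of 2.71e-05 to 0.420. MUC1 and MUC5AC thus separated sgDual2 and sgDual3 in opposite directions, while HNF4A overlapped between these guides (3.19 and 10.3 CPM with sgDual2, 4.83 and 13.6 with sgDual3).

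**Figure D3:**
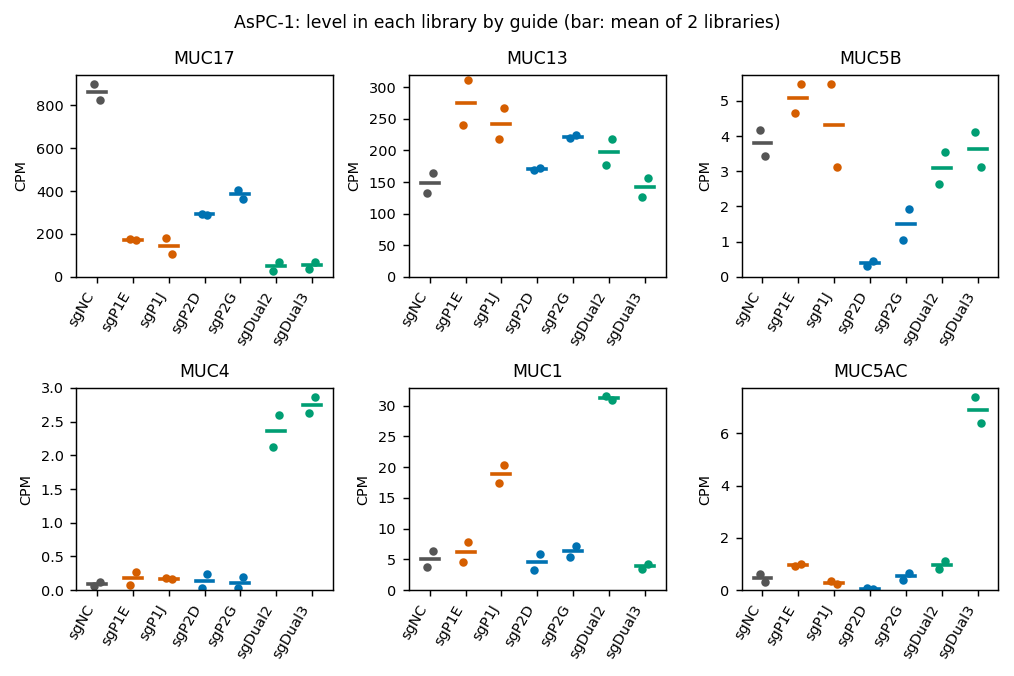
Level in CPM of 6 mucin genes in each AsPC-1 library by guide, with points for libraries, bars for the mean of 2 libraries and colours for the target. MUC17 is highest with sgNC (900 and 823), MUC5B lowest with the sgP2 guides, MUC4 high only with the sgDual guides, and MUC1 and MUC5AC are each high with a single sgDual guide.

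Between the knockdowns, 2 of 9 tested mucins differed between sgP2 and sgP1 (4.30% of all genes tested), MUC5B as above and MUC17, which was 2.13-fold higher with sgP2 (1.09, SE 0.27, adjusted p = 0.0436, edgeR). The MUC17 call was lost without any 1 of the 8 libraries (2 for each of sgP1E, sgP1J, sgP2D and sgP2G), at 0.0515 to 0.114, with a lowest p of 0.00257, although sgP1 and sgP2 libraries did not overlap. Against sgP1, sgDual differed in 6 of 9 (38.3% of all genes tested). MUC4 (15.3-fold), MUC5AC (6.04-fold), MUC2 (5.53-fold) and MUC20 (2.54-fold) were higher, and MUC17 (3.10-fold) and MUC13 (1.53-fold) were lower, the MUC13 call being lost without guide sgP1E (-0.50, adjusted p = 0.0682) or sgDual3 (-0.39, adjusted p = 0.106, lowest 0.000723). Against sgP2 it differed in 6 of 9 (46.4% of all genes tested), with MUC4 (19.2-fold), MUC5AC (13-fold), MUC2 (4.2-fold), MUC5B (3.51-fold) and MUC20 (2.16-fold) higher and MUC17 (6.58-fold) lower. The MUC5AC differences did not hold without the guide sgDual3, at 0.58 (adjusted p = 0.576, lowest 4.23e-06) against sgP1 and 1.68 (0.105, lowest 2.19e-07) against sgP2. Against sgP1 the MUC5AC call was also lost without sgP1J replicate 1, sgDual3 replicate 1 or sgDual3 replicate 2 (0.0587, 0.0620 and 0.0592), without the filter on low counts (0.0622) or without guide sgP1J (0.134). The MUC20 call against sgP1 was lost without guide sgP1J (0.93, adjusted p = 0.111), sgDual2 (0.0883) or sgDual3 (0.0502), lowest 0.00348. Against sgP2 the MUC2 call was lost without guide sgP2G (1.54, adjusted p = 0.0986, lowest 0.00261), and its value of 2.07 was 2.90 without sgP2D replicate 2. The MUC5AC call against sgP2 was also lost without guide sgP2D (2.90, adjusted p = 0.0533), and its value of 3.70 was 4.48 without sgP2G replicate 2. The MUC20 call against sgP2 was lost without 5 libraries in turn (sgP2D replicates 1 and 2, sgP2G replicate 1, sgDual3 replicate 1 and sgDual2 replicate 2), at 0.0670 to 0.0912, without any 1 of the 4 guides (0.0675 to 0.179) and with DESeq2 (0.0511), lowest 0.00929.

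Several of these genes are neighbours. In GENCODE v29 (GRCh38), MUC3A (chromosome 7, 100949555 to 100968346, plus strand), MUC12 (100969623 to 101018949) and MUC17 (101020072 to 101058745) follow each other within 109 kb, with gaps of 1.28 and 1.12 kb. MUC12, another membrane mucin, was at 0.544 CPM in the Panc10.05 controls, 0.447 with P1-a2 and 0.450 with P2-a8, and at 0.550, 0.721 and 0.458 CPM in the same groups of BxPC3. It did not pass in either line, where both of its neighbours rose. In AsPC-1 it was at 5.90 CPM with sgNC and 4.91, 4.80 and 4.50 with sgP1, sgP2 and sgDual, and passed only with sgDual (-0.39, SE 0.13, adjusted p = 0.0329, edgeR). On chromosome 3, MUC20 (195720882 to 195741123, plus strand) and MUC4 (195746765 to 195812277, minus strand) lie 5.64 kb apart and were both lower with P1-a2 in both induction lines and both higher with sgDual in AsPC-1. On chromosome 11, MUC2 (1074875 to 1110511), MUC5AC (1157953 to 1201138) and MUC5B (1223066 to 1262172) lie on the plus strand beside MUC6 in a stretch of 249 kb. MUC13 (chromosome 3, 124905442 to 124953819, minus strand), MUC1 (chromosome 1, 155185824 to 155192916, minus strand) and MUC16 (chromosome 19, 8848844 to 8981342, minus strand) stand alone among these genes. MUC20 shares exon sequence on its strand with MUC20-OT1, which was at 17.0 to 37.8 CPM over all libraries, and has a partial copy, MUC20P1, at up to 7.95 CPM, so its counts are uncertain to that extent.

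**Figure D4:**
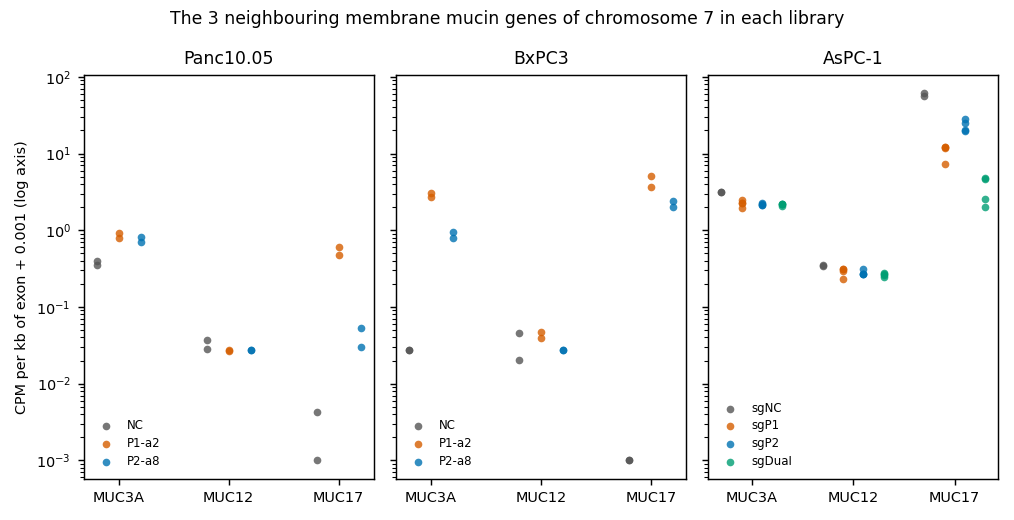
Level of MUC3A, MUC12 and MUC17, adjacent on chromosome 7, in each library as CPM per kb of exon plus 0.001 on a log axis, with a panel per line and colours for the groups. MUC3A and MUC17 rise with both isoforms in Panc10.05 and BxPC3, whereas the MUC12 points of the groups stay close together.

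Summed over the genes of a class, most mucin reads belonged to membrane genes in every group. In the BxPC3 controls the 3 secreted genes summed to 17.3 CPM ± 1.06 (SD, n = 2) and the 7 membrane genes to 144 ± 13.1, so that 10.8% ± 0.290 of mucin reads were secreted. With P1-a2 the sums were 2.14 ± 0.840 and 272 ± 24.1 (0.796% ± 0.375 secreted), and with P2-a8 3.90 ± 0.188 and 162 ± 7.13 (2.35% ± 0.211). MUC17 made up part of the induced membrane sums in BxPC3, and without it they were 208 ± 9.27 with P1-a2 and 130 ± 3.58 with P2-a8, the latter below the controls. In Panc10.05 the secreted sum was at most 0.0652 CPM in any library, and the membrane sum was 198 ± 10.2 in the controls, 238 ± 7.28 with P1-a2 and 274 ± 11.3 with P2-a8. In AsPC-1 the membrane sum was 1051 ± 28.0 with sgNC (n = 2), 456 ± 41.4 with sgP1, 565 ± 84.7 with sgP2 and 266 ± 61.2 with sgDual (n = 4 each). These n = 4 are libraries pooled over the guides of a target, so their SD mixes guides and replicates. For sgP2 the sums were 492 and 494 with sgP2D and 656 and 618 with sgP2G. MUC17 alone was 862 ± 54.4 of the sgNC sum. Without MUC17 the membrane sum was 189 ± 25.6 with sgNC, 297 ± 38.9 with sgP1, 227 ± 29.9 with sgP2 and 215 ± 52.4 with sgDual, so the lower sums of the knockdowns were those of MUC17. The sgP1 libraries were then all above sgNC (264 to 345 against 171 to 208), and those of sgP2 and sgDual overlapped it. The secreted sum was 4.33 ± 0.726, 5.38 ± 1.33, 1.31 ± 0.998 and 7.64 ± 4.02 in the same order. That was 0.410% of mucin reads with sgNC, 0.820% to 1.30% over the sgP1 libraries, and 0.219% and 3.07% with sgP2 and sgDual. The sgDual share differed by guide, at 1.38% and 1.39% with sgDual2 and 5.84% and 3.68% with sgDual3. The sgDual2 secreted sums (3.70 and 4.85 CPM) overlapped those of sgNC (4.85 and 3.82), and those of sgDual3 were 12.1 and 9.86. These sums are a description without a test. The medians of the fitted changes of the 7 membrane genes were 0.59 and 0.79 with P1-a2 and P2-a8 in Panc10.05 and -1.65 and -0.94 in BxPC3. They were 0.49, 0.26 and 0.89 for the 6 membrane genes tested with sgP1, sgP2 and sgDual. With sgP1 and sgP2 the only membrane genes to pass, MUC17 and MUC3A, fell. With sgDual MUC17 and MUC3A also fell, whereas MUC4 and MUC20 rose from few counts. The membrane medians in AsPC-1 thus do not describe that class. In BxPC3 MUC17 lies above the median both as fitted and at its lower bound. The medians were -3.22 for the 2 tested secreted genes with P1-a2 in BxPC3 and -2.29 with P2-a8, and 0.32, -0.67 and 2.79 for the 3 secreted genes with sgP1, sgP2 and sgDual, beside all-gene medians between -0.01 and 0.02. A median of 3 genes is the value of a single gene. With sgDual that gene is MUC2, which had 1 and 2 counts with sgNC. MUC5AC (3.03) did not pass there and MUC5B overlapped sgNC, so the sgDual median does not describe the class.

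**Figure D5:**
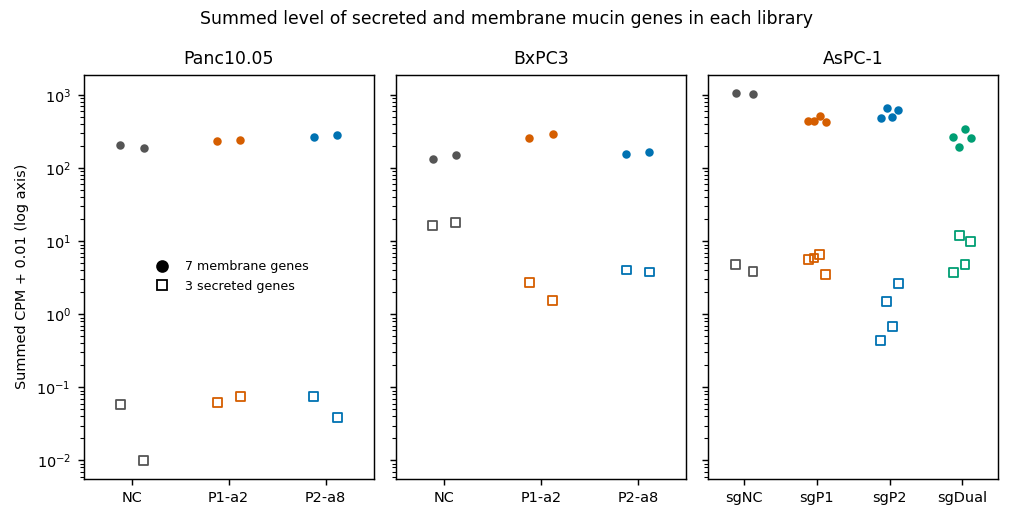
Summed CPM plus 0.01 on a log axis of the 7 membrane genes (filled circles) and the 3 secreted genes (open squares) in each library, with a panel per cell line. Membrane sums run from 135 to 1071 CPM, and secreted sums fall from 16.6 and 18.1 in the BxPC3 controls to 1.54 and 2.73 with P1-a2.

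Genes that build or carry mucins were followed as lists. Of 12 other mucin or mucin-like genes, MUC3B had no matching identifier in the count tables, and 3 to 5 of the rest were abundant enough to test per line. With P1-a2, OVGP1 fell in Panc10.05 and MUC7 and MUCL1 rose in BxPC3. MUCL3 rose with P2-a8 in Panc10.05, and MUC12 was the only one to pass with sgDual. They are named after their values were seen, because so few passed. OVGP1 went from 2.79 to 1.44 CPM, MUCL1 from 0.892 to 2.03 and MUCL3 from 0.118 to 0.400, and MUC7 from no count to 0.416 CPM, at least 4.30-fold higher against a floor of 3 counts. Of 31 genes of mucin-type O-glycosylation, 10 rose and 12 fell among 26 tested with P1-a2 in Panc10.05, 10 rose and 9 fell among 28 in BxPC3, and 9 rose and 2 fell among 21 with sgDual. Over all genes tested 62.0%, 32.0% and 35.6% passed in these 3 comparisons. With P2-a8 14 rose and 4 fell in Panc10.05, and 4 rose and 5 fell in BxPC3, beside 46.2% and 6.99% of all genes. With sgP1 none of the 21 passed and with sgP2 2 rose and 2 fell, beside 0.265% and 3.42%. The median log2 change of the list was -0.15 and -0.07 with P1-a2 in the respective lines and 0.29 with sgDual.

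Single enzymes changed by more than the list median. GCNT3, the mucin-type core enzyme that branches core 1 and core 3 chains, rose from 5.87 to 16.8 CPM with P1-a2 in BxPC3 (1.52, SE 0.11) and to 11.2 with P2-a8 (0.93, SE 0.12), and fell from 247 to 139 CPM with sgP2 (-0.83, SE 0.15, adjusted p = 0.0105, edgeR). With sgDual it was at 294 CPM and did not pass (0.25, SE 0.16, adjusted p = 0.241). ST3GAL1, which caps core 1 with sialic acid, rose from 7.16 to 26.4 CPM with P1-a2 in Panc10.05 (1.88, SE 0.10) and to 21.7 with P2-a8 (1.6, SE 0.10), and did not pass in BxPC3. It also rose with sgP2, from 149 to 238 CPM (0.67, SE 0.07), and was at 133 with sgDual (-0.17, SE 0.07, adjusted p = 0.0760). FUT2, the secretor fucosyltransferase, fell from 11.8 to 3.37 CPM with P1-a2 in Panc10.05 (-1.79, SE 0.14) and rose from 4.02 to 7.65 in BxPC3 (0.93, SE 0.17). GALNT12, a starter of O-glycan chains, fell from 75.0 to 30.3 CPM with P1-a2 in BxPC3 (-1.31, SE 0.09) and from 7.30 to 4.03 in Panc10.05 (-0.86, SE 0.14), and rose from 18.9 to 28.7 with sgDual (0.60, SE 0.15). GALNT7, of the same enzyme family, fell from 188 to 74.1 CPM with P1-a2 in Panc10.05 (-1.34, SE 0.06) and rose from 74.6 to 135 with sgDual (0.85, SE 0.07). C1GALT1C1, the chaperone of the core 1 enzyme, rose with sgDual from 31.0 to 55.7 CPM (0.84, SE 0.13). ST3GAL4, another sialyltransferase, rose from 48.0 to 83.6 CPM (0.80, SE 0.09). ST6GALNAC2 fell from 7.53 to 2.64 CPM with P1-a2 in Panc10.05 (-1.5, SE 0.17).

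Of 20 genes of goblet cells and mucin secretion, 13 were tested in AsPC-1, where 8 rose and 2 fell with sgDual (median 1.58, beside 35.6% of all genes). None passed with sgP1 or sgP2, where only 0.265% and 3.42% of all genes passed. AGR2, the disulfide isomerase that folds gel-forming mucins, rose from 17.0 to 168 CPM (3.31, SE 0.56, adjusted p = 0.000998, edgeR). CREB3L1, a membrane-bound transcription factor of secretory cells, rose from 9.49 to 87.7 CPM (3.21, SE 0.42), and ZG16B from 6.62 to 20.2 (1.61, SE 0.27). With sgP1 all AGR2 libraries (36.6 to 114 CPM) lay above sgNC (13.6 to 20.3) without passing. The same held for CREB3L1 (16.6 to 41.9 against 8.52 to 10.5), whereas ZG16B overlapped sgNC (5.13 to 11.6 against 6.53 to 6.71). In BxPC3 with P1-a2, 2 of 11 rose and 5 fell, beside 32.0% of all genes. There ERN2, the goblet cell stress sensor, fell from 27.6 to 9.83 CPM (-1.49, SE 0.11), CREB3L1 from 16.2 to 5.74 (-1.5, SE 0.40, adjusted p = 0.0457) and AGR2 from 245 to 162 (-0.60, SE 0.16, adjusted p = 0.0361), beside MUC2 and MUC5AC. In Panc10.05 with P1-a2, 1 of 6 rose and 3 fell, a share near the 62.0% of all genes. SYTL2, an exocytosis adaptor, rose there from 3.6 to 16.3 CPM (2.17, SE 0.13) and in BxPC3 from 21.1 to 51.5 (1.29, SE 0.08), and it also rose with sgDual, from 25.2 to 75.6 (1.58, SE 0.32). KLF4, a goblet cell differentiation factor, fell in Panc10.05 from 147 to 108 CPM with P1-a2 (-0.45, SE 0.06).

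Of 8 partners of membrane mucins, 4 rose and 0 fell with P1-a2 in Panc10.05, 6 rose and 0 fell with P2-a8, and in BxPC3 4 rose and 2 fell with P1-a2 and 2 rose and 1 fell with P2-a8. Over all genes 62.0%, 46.2%, 32.0% and 6.99% passed in these 4 comparisons, so the Panc10.05 P1-a2 count is below its background. PDZK1, a PDZ scaffold that binds the tails of MUC17 and MUC3A, rose from 0.212 to 10.2 CPM with P1-a2 in Panc10.05 (5.58, SE 0.22) and to 13.6 with P2-a8 (5.99, SE 0.21). In BxPC3 it rose from 0.253 to 3.38 (3.73, SE 0.38) and 0.956 (1.90, SE 0.45). NHERF1, a related scaffold, rose from 151 to 391 CPM in Panc10.05 and from 236 to 356 in BxPC3 with P1-a2 (1.38, SE 0.06, and 0.60, SE 0.05), and fell from 242 to 85.6 with sgDual (-1.5, SE 0.11, adjusted p = 5.00e-07, edgeR). MSLN, the ligand of MUC16, rose from 7.21 to 9.31 CPM with P1-a2 in Panc10.05 and to 12.8 with P2-a8, and fell from 25.2 to 11.9 and 18.8 in BxPC3. ERBB3 rose from 97.6 to 148 CPM with P1-a2 in BxPC3 (0.60, SE 0.09) and to 137 with P2-a8. LGALS3, a lectin that binds MUC1, rose from 124 to 231 CPM with P1-a2 in BxPC3 (0.90, SE 0.13) and fell from 523 to 291 CPM with sgP2 (-0.85, SE 0.12), and was at 636 with sgDual (0.28, SE 0.12, adjusted p = 0.0912). Of 7 partners tested in AsPC-1, ERBB2 rose from 70.2 to 106 CPM and EGFR from 854 to 1235 with sgDual (0.59, SE 0.12, and 0.53, SE 0.09).

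Over the 14 AsPC-1 libraries, the genes whose log2 CPM followed MUC17 most closely, among 10552 genes with a mean of at least 5 CPM, were TCEAL1 (Pearson's r = 0.964, Spearman's rho = 0.947), GPA33 (0.953 and 0.921) and XPNPEP1 (0.949 and 0.864). GPA33, an intestinal surface antigen, was at 128 CPM with sgNC, 56.3 with sgP1, 86.9 with sgP2 and 17.5 with sgDual, the order of MUC17. Without the 2 libraries farthest from the median of MUC17, r was 0.944 for each of the 3. For MUC5B, the most abundant secreted member, they were EPB41L1 (0.959 and 0.754), LINC02889 (r = 0.922) and TBC1D2B (0.898 and 0.807), with r at 0.902, 0.843 and 0.701 without the 2 farthest libraries. EPB41L1, a cytoskeletal adaptor, was at 443 CPM with sgNC, 451 with sgP1, 289 with sgP2 and 448 with sgDual. These are descriptions over libraries that share guides, were picked as the closest of many genes and fall into groups by target.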

How the data were processed

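RNA was sequenced from 26 libraries, 6 of Panc10.05, 6 of BxPC3 and 14 of AsPC-1. Libraries were poly(A)-selected, directional and paired-end, per the labels' protocols. The values are counts of reads per gene as the authors deposited them, in 1 table per cell line. The submitters' processing notes name cutadapt 1.16, STAR 2.7.9a, featureCounts 1.6.3, DESeq2 1.36.0 and the build GRCh38; the annotation release and strand setting of the counting are not given in the sources used here. Identifiers were matched to GENCODE v29, which gave symbols, positions and exon lengths.

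Counts were tested with edgeR 4.0.16 (TMM scaling, filterByExpr by group, robust quasi-likelihood fit) in R 4.3.3, per cell line with all its groups in 1 fit, and with both induction lines in a joint fit for the interaction. Benjamini-Hochberg adjustment ran over 17247 genes in Panc10.05, 17635 in BxPC3, 16992 in AsPC-1 and 19372 in the joint fit, and the threshold was 0.05. CPM use TMM-scaled totals. Members at or under 3 counts in every library of both groups were not tested, fold changes against a group at 0 are bounds at 3 counts per library, and fold changes against 1 to 3 counts carry a 95% exact binomial counting interval. The depth, 26079388 to 50662077 counts, makes 3 counts 0.0585 to 0.116 CPM. The fits were tested on simulated data.

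The members and lists were chosen with earlier results of these data known. All 10 members were named. From the other lists, up to 3 genes with the largest change among those past the threshold with a mean of at least 5 CPM were named, in P1-a2 against NC of each line and in sgDual against sgNC. Genes most like a member were the 3 with the highest Pearson correlation of log2(CPM + 0.5). Alternatives were total-count and DESeq2-style scaling, no filter on low counts, DESeq2 1.42.0, only the 2 groups compared, an added minimum fold size (1 on the log2 scale), a replicate block, 7 guide groups, and leaving out each library or guide. Plots were drawn with matplotlib 3.10.9.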

Additional observations from a re-analysis of the deposited data

Results flagged for a closer look

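MUC17 in AsPC-1 with sgP1 had a low library: sgP1J replicate 2 was at 108 CPM and the other 3 at 172 to 180, a gap of 0.887 of the group's range. Of 27 groups of 4 libraries examined this was the only such gap, and chance flags about 1 in 20.

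For 6 membrane mucins the response differed between Panc10.05 and BxPC3 by the interaction test, given as Panc10.05 minus BxPC3 on the log2 scale. With P1-a2 the differences were 1.05 for MUC1, -5.57 for MUC3A, 1.13 for MUC4, -2.78 for MUC13, 3.16 for MUC16 and -0.91 for MUC20. With P2-a8 they were 1.95, -4.03, 0.83, -2.16, 3.52 and 1.03 in the same order of genes. MUC16 differed in direction with both isoforms and MUC1 with P2-a8. Line, control construct, doxycycline dose and the number prefix of the library titles cannot be told apart in these differences.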

How the results depend on the processing

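Of the recomputed counts of members past the threshold and class shares, 196 stayed near their value (counts within 1.5 times), 34 counts were lower, 4 were higher and 8 shares moved by more than 1 SD over their libraries. An added minimum size of 1 on the log2 scale left 2 members for Panc10.05 P2-a8 against NC, 2 for BxPC3 P1-a2 against P2-a8 and 1 for AsPC-1 sgP1 against sgNC. Fitting only the 2 groups left 1 for sgP1 against sgNC and 1 for sgP2 against sgP1. Without the filter on low counts, 1 remained for sgP2 against sgNC, 1 for sgP2 against sgP1 and 4 for guide sgP2D against sgP2G. With 7 guide groups 5 passed for sgP2 against sgP1. Without guide sgP2D 1 passed for sgP2 against sgNC, without guide sgDual3 2 for sgDual against sgP1, and without sgP1E, sgP1J, sgP2D or sgP2G 1 for sgP2 against sgP1. Leaving out single libraries gave 0 to 2 members for sgP1 against sgNC, 0 to 2 for sgP2 against sgNC, 3 to 6 for sgDual against sgNC, 1 for sgP2 against sgP1, 1 to 2 for sgP1E against sgP1J and 0 to 2 for sgP2D against sgP2G.

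Replicate numbers were not taken as pairs in the main fits, because the labels state no pairing. The correlation of same-numbered deviations was -0.0119 to 0.00733 in Panc10.05, 0.0727 to 0.131 in BxPC3 and 0.0772 to 0.339 in AsPC-1. It was thus positive in every BxPC3 and AsPC-1 pair. Libraries of the same number may share a part there that the main fits count as spread. With the replicate block 2 members passed for guide sgP2D against sgP2G, MUC4 passed in Panc10.05 P2-a8 against NC (-0.36, adjusted p = 0.00617) and MUC16 in BxPC3 P1-a2 against P2-a8 (-0.72, adjusted p = 0.0335). MUC13 also passed between sgP2D and sgP2G (-0.37, adjusted p = 0.00661) and between sgDual2 and sgDual3 (0.48, adjusted p = 0.0010).

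Per kb of exon the secreted share moved to 0.00664% and 0.00535% for P1-a2 and P2-a8 in Panc10.05, to 7.31%, 0.314% and 1.08% for NC, P1-a2 and P2-a8 in BxPC3, and to 0.223%, 0.327% and 0.843% for sgNC, sgP1 and sgDual. The other 2 shares stayed within 1 SD, going from 0.219% ± 0.149 to 0.0839% with sgP2 and from 0.0117% ± 0.0166 to 0.00349% for NC in Panc10.05. Signs changed for MUC20 in Panc10.05 P2-a8 against NC (-0.04 without P2-a8 replicate 2, -0.09 without NC replicate 2, 0.30 without NC replicate 1), for MUC1 without guide sgDual2 (-0.38 for sgDual against sgNC, -0.49 against sgP2), for MUC5AC in sgP2 against sgP1 without guide sgP1E (0.05), for MUC13 in sgDual against sgP2 without guide sgDual3 (0.01) and for MUC17 between sgP1E and sgP1J without sgP1J replicate 2 (-0.04, against 0.68 without sgP1J replicate 1). None of these 7 values had been past the threshold. The causes were not tested. Over all genes the counts behind the quoted shares also moved. For sgP1 against sgNC 45 genes passed, 242 with DESeq2, 81 without the low-count filter, 7 with only the 2 groups, 127 with the replicate block, 606 with 7 guide groups, 262 without guide sgP1E and 1242 without sgP1J. For sgP2 against sgNC 581 passed, 1132 with DESeq2, 1103 with only the 2 groups, 972 with the block, 1905 with guide groups, 322 without sgP2D and 293 without sgP2G. For sgP2 against sgP1 731 passed, 1272 with DESeq2, 189 with only the 2 groups, 1204 with the block, 2086 with guide groups, 2764 without sgP1E, 306 without sgP2D and 411 without sgP2G. For sgDual against sgP1 6505 passed, 4320 without sgDual3. For P2-a8 against NC in BxPC3 1232 passed, 1982 without the filter and 2886 with the block, and for P1-a2 against P2-a8 there 3963 and, with the block, 5992. Between guides the block gave 4616 against 2467 for sgP1E and sgP1J, 778 against 288 for sgP2D and sgP2G and 558 against 150 for sgDual2 and sgDual3, and no filter gave 649 and 417 for the last pairs. Scaling by total counts alone changed 17 higher and 28 lower genes to 23 and 25 for sgP1 against sgNC, and 282 and 299 to 365 and 253 for sgP2 against sgNC. Without an sgNC library 7 or 1 genes passed for sgP1 and 63 or 57 for sgP2 against sgNC. Depth limits the secreted members in Panc10.05, MUC16 in AsPC-1 and MUC5B in BxPC3.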
